A study of Mus musculus with 6 samples.

Results

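The type 2 cytokines and the genes of alternative macrophage activation measured here were Il4, Il5, Il13, Tslp, Il4ra, Chil3, Chil4, Arg1, Retnla and Mrc1. They were chosen by gene name, with results of these arrays already known, and every probe that carries one of these names was kept apart. The array holds 11 such probes for the 10 genes, 1 for each gene except Il4ra, which has 2, among 56605 non-control probes that carry 37008 gene names. RNA came from skin tumours of male mice on 6 one-colour arrays, 3 of tumours labelled P2ry6-/- (knockout) and 3 of tumours labelled P2ry6+/+ (wild-type). P2ry6 encodes a cell surface receptor for extracellular nucleotides. All tumours arose under the same carcinogenesis protocol, in which 12 mice of each genotype received DMBA, a mutagen, once at 195 nmol in 200 uL of acetone on shaved back skin and, starting a week later, TPA, a phorbol ester that promotes tumours, at 16 nmol 2 times a week until week 22. The labels give no age or strain and do not say how the P2ry6 allele was made, and they do not state that each tumour came from a different mouse, so the errors below describe the spread between these 6 samples, which may be partly technical.

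Type 2 immunity is the response of barrier tissues to helminths and allergens. In skin, keratinocytes release TSLP, which acts on dendritic cells and lymphoid cells; T helper cells, innate lymphoid cells, basophils and mast cells then make IL-4, IL-5 and IL-13. IL-4 and IL-13 signal through receptors that share the IL-4 receptor alpha chain, encoded by Il4ra, and activate the transcription factor STAT6. In mouse macrophages this pathway induces Arg1, Chil3, Chil4, Retnla and Mrc1, the classical genes of alternative activation, while several of these genes are also made by other cells.

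Values are log2 of the processed spot signal minus the 75th percentile of the same array, so 0 lies at that percentile and a difference of 1 is a 2-fold change; levels of different probes are not comparable with each other. The percentile lay at 298.1, 299.6 and 277.1 signal units in the labelled knockout tumours and at 341.0, 367.9 and 321.7 in the labelled wild-type tumours, and 54.2% to 59.4% of the spots of an array were well above background by the scanner program's own test. Correlations over the 29721 tested probes were 0.982 to 0.984 among labelled knockout arrays, 0.963 to 0.979 among labelled wild-type arrays and 0.957 to 0.971 between genotypes. P2ry6 itself was not lower in the labelled knockout tumours: one probe read 0.57, 0.70 and 0.45 there, against 0.38, 0.33 and -0.21 in the labelled wild-type ones, and the other read -0.95, -0.70 and -0.45 against -0.93, -1.15 and -1.65. Whether these probes lie within the deleted stretch of P2ry6 is unknown, and every direction below is between tumours as labelled. Keratinocyte keratins averaged 9.30 to 9.39 in the labelled knockout tumours and 8.84 to 9.18 in the labelled wild-type tumours, without overlap. Adipocyte and muscle markers lay apart between the labels, and hair follicle, fibroblast and endothelial markers overlapped: 6 adipocyte genes averaged -1.67 to -1.27 in the labelled knockout tumours and 1.39 to 2.23 in the labelled wild-type tumours, 6 skeletal muscle genes averaged -4.76 to -4.31 against -0.69 to 4.32, and 6 hair follicle genes averaged -2.45 to 0.37 against 0.28 to 4.99. Fibroblast genes averaged 3.23 to 4.45 against 2.44 to 4.14 and endothelial genes -0.60 to -0.19 against -0.37 to 0.05.

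Chil3 and Chil4, which gave the largest differences among the 10 genes, are neighbouring chitinase-like genes on the minus strand of chromosome 3, and their annotated starts lie 51915 bases apart (RefSeq, build GRCm38.p6). Their promoters are shown because the pair also shares most of the sequence within the windows compared below, which reach 250 bases before each start. The stretches below end in the TATAAAA element of each gene and are 226 bases long; capitals mark that element and a TTCNNNGAA motif, the general form of a STAT site. The Chil3 stretch is at chr3:106167561-106167786 and the Chil4 stretch at chr3:106219504-106219729, both read on the minus strand. The Chil4 element ends 25 bases before the annotated start, while the Chil3 element spans the annotated start, an offset of 28 bases.
Chil3 promoter: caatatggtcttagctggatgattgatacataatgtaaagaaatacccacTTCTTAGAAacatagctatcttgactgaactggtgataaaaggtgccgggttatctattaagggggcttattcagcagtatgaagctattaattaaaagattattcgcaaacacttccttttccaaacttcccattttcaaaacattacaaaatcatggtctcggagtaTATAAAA
Chil4 promoter: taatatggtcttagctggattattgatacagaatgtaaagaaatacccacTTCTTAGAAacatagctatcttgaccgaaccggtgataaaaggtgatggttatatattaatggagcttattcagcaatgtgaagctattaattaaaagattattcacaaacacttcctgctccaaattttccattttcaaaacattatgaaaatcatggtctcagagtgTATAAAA
Aligned, the stretches were identical in 205 of 227 columns (90.3%), with 20 mismatched columns and 2 gap columns, and the motif TTCTTAGAA lay in both. TTCNNNGAA was found in 8.3% of the 32851 annotated promoter windows, each running from 250 bases before a gene's start to 50 after it; among the 8 of the 10 genes that have a window it was in those of Il4, Chil3 and Chil4. The related spacing TTCNNNNGAA, the form STAT6 is known to prefer, was in 6.95% of all windows and in those of Il4 and Retnla. Il4 has 2 windows, with TTCNNNGAA across the annotated start of one and TTCNNNNGAA upstream in the other. Counted by window, 3 of the 9 member windows held TTCNNNGAA and 2 held TTCNNNNGAA. Each motif reads alike on the opposite strand, so one search covers both strands. A match to letters is not a bound site. The 60 bases around the longer motif, in capitals, are at chr16:48842439-48842498 on the plus strand for Retnla and at chr11:53618798-53618857 on the minus strand for Il4.
Retnla promoter: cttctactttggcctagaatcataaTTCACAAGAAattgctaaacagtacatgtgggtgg
Il4 promoter: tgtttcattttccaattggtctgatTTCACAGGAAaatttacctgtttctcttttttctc
The array read each transcript through a 60-base probe, and those of Il4, Chil4 and Arg1 are shown as examples from the cytokine, chitinase-like and arginase members described below. The probes lie, by the files' mouse mm9 coordinates and all on the minus strand, at chr11:53426076-53426135 (Il4), chr3:106006584-106006643 (Chil4) and chr10:24636194-24636253 (Arg1).
Il4 probe: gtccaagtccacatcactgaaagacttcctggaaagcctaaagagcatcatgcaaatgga
Chil4 probe: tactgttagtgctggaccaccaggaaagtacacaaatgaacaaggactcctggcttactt
Arg1 probe: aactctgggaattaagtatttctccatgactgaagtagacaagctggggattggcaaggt

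Il4, the cytokine that drives T helper 2 differentiation and alternative activation, was higher in every labelled knockout tumour than in any labelled wild-type tumour. Its values were -0.86, 0.24 and 1.55 in the labelled knockout tumours, or 164, 354 and 809 signal units, against -3.51, -2.16 and -3.93 in the labelled wild-type tumours, or 29.9, 82.5 and 21.1 units. The genotypes did not overlap, and 1.30 log2 units separated the lowest labelled knockout tumour from the highest labelled wild-type tumour. The mean was 0.31 ± 1.20 against -3.20 ± 0.93 (SD, n = 3 each), a difference of 3.51 with a standard error of 0.68 in the limma fit over all tested probes, or 11.4-fold. Il4 was well above background in all 3 labelled knockout tumours and in 2 of 3 labelled wild-type tumours, and it entered the fit only through the labelled knockout tumours. With another background correction, normexp, the difference was 2.18, and without the third labelled knockout tumour it was 2.89.

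Il5, the growth and survival factor of eosinophils, and Il13, the cytokine that shares receptors with IL-4, did not clear background on any of the 6 arrays. Il5 read -6.07, -6.16 and -6.15 in the labelled knockout tumours and -6.26, -6.73 and -6.31 in the labelled wild-type tumours. Il13 read -5.05, -4.10 and -4.64 against -5.11, -6.24 and -5.65. These values only bound the 2 cytokines from above, so no fold is given for either. All 3 genes sit in the type 2 cytokine cluster on chromosome 11, where the Il4 probe lies at chr11:53426076-53426135, the Il13 probe at chr11:53445564-53445623 and the Il5 probe at chr11:53538345-53538404 (mm9).

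Tslp, the keratinocyte alarmin, read 1.84, 2.69 and 1.95 in the labelled knockout tumours and 1.50, 0.16 and 1.26 in the labelled wild-type tumours. The genotypes did not overlap, though only 0.34 log2 units lay between them. The difference was 1.18 with a standard error of 0.39, or 2.27-fold, and it was 0.78 without the second labelled wild-type tumour, the lowest of the 6. The difference was 2.10 within the slide column whose only labelled wild-type tumour was the second, and 0.57 within the other.

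The receptor chain gave little contrast. The first Il4ra probe, at chr7:132721137-132721196 (mm9), read 2.79, 2.78 and 3.22 in the labelled knockout tumours and 2.69, 2.55 and 1.77 in those labelled wild-type, a difference of 0.59 with a 95% interval from -0.07 to 1.25. The second Il4ra probe, at chr7:132712550-132712609, read -1.27, -1.18 and -0.70 against -0.57, -1.59 and -1.34, a difference of 0.12 with an interval from -0.59 to 0.83. On the first probe a gap of 0.09 separated the genotypes, and on the second they overlapped. Both intervals include 0 and reach up to 2.38-fold on the first probe and 1.77-fold on the second, so 3 arrays of each genotype leave room for changes of that size.

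**Figure D1:**
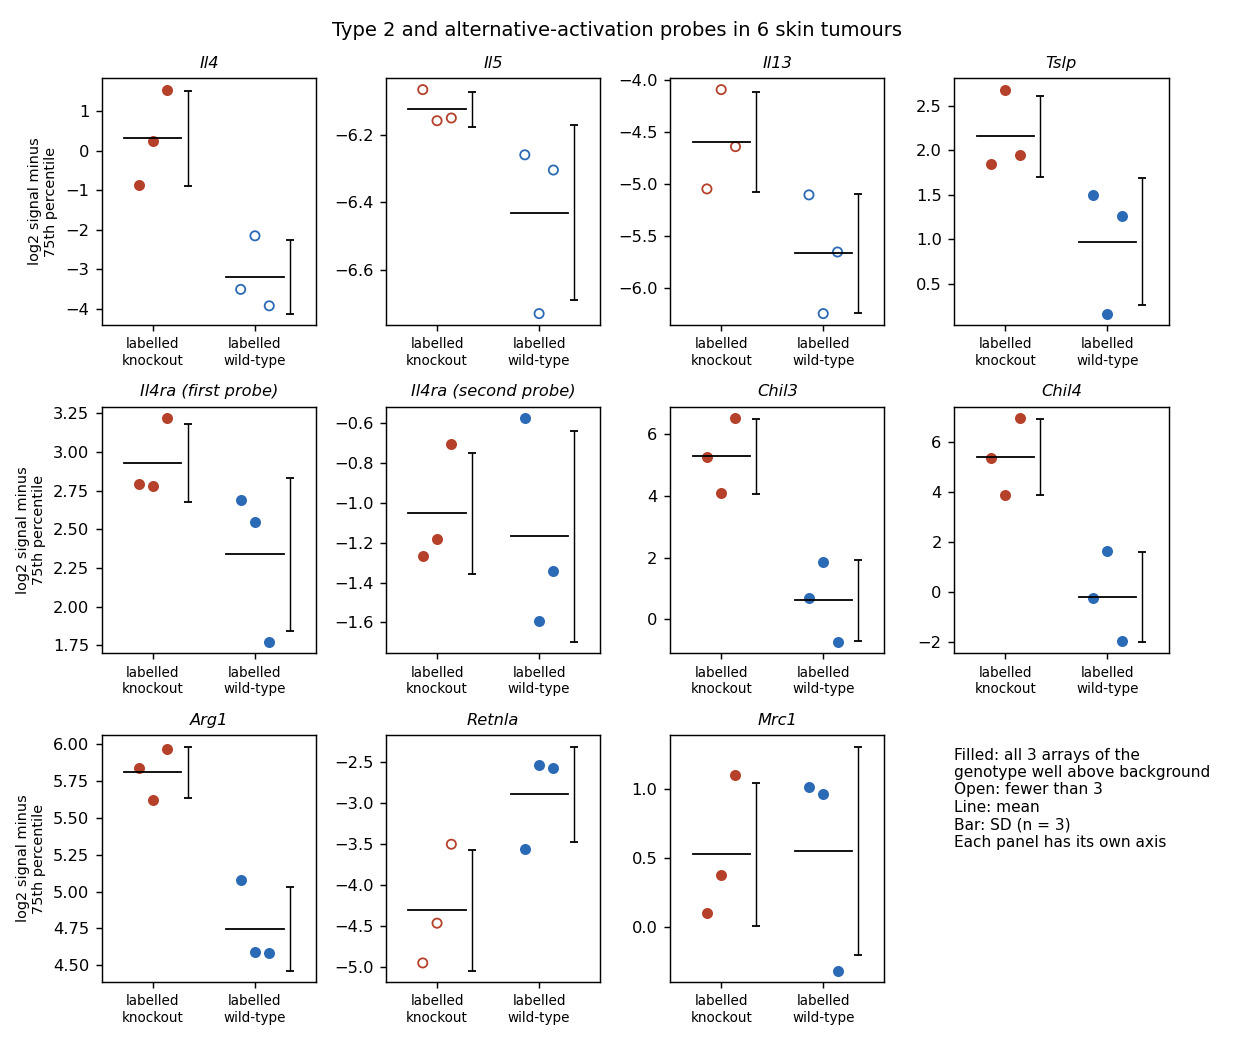
Values of the 11 probes on each of the 6 arrays, as log2 signal minus the array's 75th percentile, with labelled knockout tumours left of labelled wild-type tumours; lines are means, bars are SD (n = 3), and open points mark a genotype in which fewer than 3 arrays were well above background. Il4, Tslp, Chil3, Chil4, Arg1 and, by a gap of 0.09, the first Il4ra probe are higher in all 3 labelled knockout tumours. The second Il4ra probe, Retnla and Mrc1 overlap, and Il5 and Il13 are at background throughout.

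Chil3 encodes Ym1, a secreted chitinase-like protein without chitinase activity that macrophages and neutrophils make and that crystallises in inflamed mouse lung. Its probe, at chr3:105950485-105950544 (mm9), read 5.25, 4.10 and 6.53 in the labelled knockout tumours, or 11360, 5129 and 25610 signal units, against 0.71, 1.87 and -0.74 in the labelled wild-type tumours, or 557, 1342 and 193 units. The difference was 4.68 with a standard error of 0.79, or 25.6-fold with a 95% interval from 7.00 to 93.9, and it ranked 41st in size among the 29721 tested probes. All 6 arrays were well above background.

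Chil4 encodes Ym2, the close paralogue of Ym1. It read 5.37, 3.88 and 6.96 in the labelled knockout tumours, or 12290, 4415 and 34540 units, against -0.25, 1.62 and -1.99 in the labelled wild-type tumours, or 286, 1134 and 80.9 units. The difference was 5.61 with a standard error of 1.05, or 48.8-fold with an interval from 8.77 to 272, the 23rd in size over the array. Single tumours moved both differences by more than 1.5 times in fold: without the third labelled wild-type tumour or the third labelled knockout tumour they were 4.72 and 4.83 for Chil4 and 4.01 and 4.06 for Chil3, and without the second labelled wild-type tumour or the second labelled knockout tumour they were 6.53 and 6.37 for Chil4 and 5.31 and 5.28 for Chil3. The tumours kept the same order for both genes: the third labelled knockout tumour was the highest and the second the lowest of its genotype, and the second labelled wild-type tumour was the highest and the third the lowest. Spread within a genotype was wide, up to 2.43 log2 units for Chil3 and 3.08 for Chil4 among labelled knockout tumours and 2.60 and 3.62 among labelled wild-type tumours, yet a gap of 2.23 for Chil3 and 2.26 for Chil4 lay between the genotypes. How far either probe also binds the other gene's transcript was not tested, so the pair may not be 2 separate readings.

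Arg1, the arginase that turns arginine into ornithine and urea, varied less within each genotype than Il4, Tslp, Chil3 or Chil4. It read 5.84, 5.62 and 5.97 in the labelled knockout tumours, or 17080, 14750 and 17350 units, against 5.08, 4.59 and 4.58 in the labelled wild-type tumours, or 11510, 8839 and 7703 units. The difference was 1.06 with a standard error of 0.20, or 2.09-fold, and the genotypes were 0.54 apart. It was 1.14 within each of the 2 slide columns and stayed between 0.98 and 1.23 when any one tumour was left out.

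Retnla encodes RELM alpha (Fizz1), a secreted protein induced by IL-4 in macrophages and also made in mouse fat. Unlike Chil3, Chil4 and Arg1 it was not higher in the labelled knockout tumours: it read -4.95, -4.47 and -3.51 there, or 9.64, 13.6 and 24.4 units, against -3.57, -2.55 and -2.58 in the labelled wild-type tumours, or 28.8, 63.1 and 53.8 units. The difference was -1.41 with a standard error of 0.43, but the genotypes overlapped by 0.06. Only 1 of 3 labelled knockout tumours was well above background, so no fold is given, and the probe entered the fit through the labelled wild-type tumours alone. With normexp the difference was -0.27. Adipocyte genes lay lower too, in 5 of 6 measured, with Adipoq and Cfd, the only list genes past the adjusted threshold, at background in all 3 labelled knockout tumours; their part in the Retnla difference was not tested.

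Mrc1 encodes the mannose receptor CD206, a surface marker of alternatively activated and tissue-resident macrophages. It read 0.10, 0.37 and 1.10 in the labelled knockout tumours and 1.01, 0.97 and -0.32 in the labelled wild-type tumours, with a difference of -0.03, a standard error of 0.42 and a 95% interval from -1.03 to 0.97. The genotypes overlapped over 0.91 log2 units, and the sign turned with the tumour left out, between -0.47 and 0.20.

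**Figure D2:**
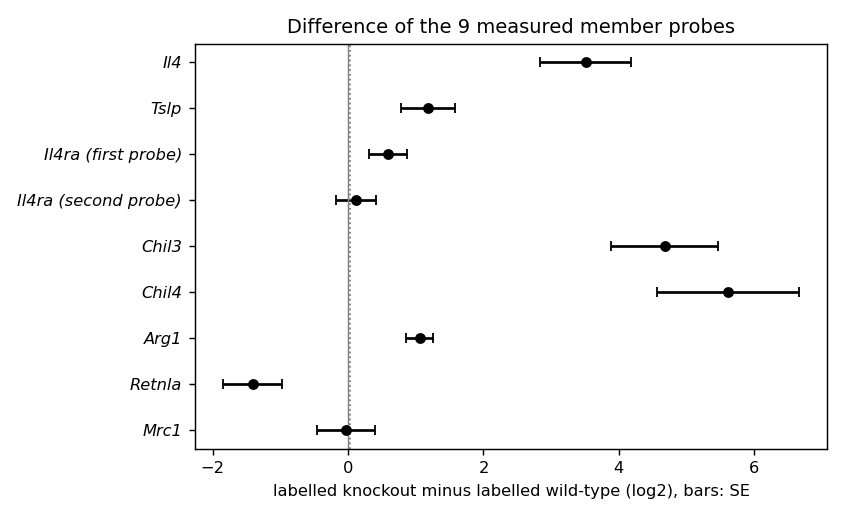
Labelled knockout minus labelled wild-type difference of the 9 member probes that entered the fit, on the log2 scale, with bars of 1 standard error; the dotted line is the median of all 29721 tested probes, at 0.02. Chil4, Chil3 and Il4 lie farthest to the right, Tslp and Arg1 near 1, Mrc1 at 0 and Retnla to the left.

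Of the 11 probes 9 entered the fit, and none of the 9 passed an adjusted p of 0.05 in limma's test across the array, which called 0.145% of the tested probes. At an unadjusted p under 0.05 there were 5 higher and 1 lower, where the array gave 7.78% higher and 4.89% lower; 6 of the 9 lay above the labelled wild-type range in all 3 labelled knockout tumours, where 12% of tested probes did. Since the genes were picked with this contrast known, nothing is read from these counts. The difference of the 3 most divergent probes varied with position on the slide, on which all 6 arrays lay and were scanned together. In the column with 2 labelled knockout tumours and 1 labelled wild-type tumour it was 1.85 for Il4, 2.81 for Chil3 and 3.00 for Chil4. In the column with 1 labelled knockout tumour and 2 labelled wild-type tumours it was 5.27 for Il4, 6.54 for Chil3 and 8.08 for Chil4. The lone tumours of their label in a column were the second labelled wild-type and the third labelled knockout tumour. Each was the highest of its label for all 3 genes, so tumour and position cannot be told apart. Slide rows nearly followed the labels; the 1 row that held a tumour of each label gave 3.07 for Il4, 5.99 for Chil3, 7.36 for Chil4 and 1.26 for Arg1. These 4 genes did not overlap between the labels, so their direction had to be the same in each of those splits.

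Around the members, pathway lists of 88 further genes were read. Of these, 87 are on the array and 60 were measured well enough to test, with 1 probe for each gene. The lists cover type 2 initiators, receptors and signalling, IL-4 and IL-13 targets, and the chitinase and resistin families. Arginine genes and, as a counterpart, type 1 and classical genes are pooled with them, so the pooled counts are not those of the type 2 pathway alone. In limma's test adjusted over the array 0 of the 60 passed, where 0.167% of 19752 gene names did; at an unadjusted p under 0.05 there were 8 higher (13.3%) and 2 lower, against 7.93% and 5.44% of gene names. The genotypes did not overlap for 6 higher and 2 lower, where 12.1% and 7.36% of gene names gave that. In sign 38 lay higher (63.3%, against 52.1% of gene names) and 22 lower, and the median difference was 0.22 against 0.02 over all gene names. The lists were assembled with earlier results of these arrays known.

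Genes that start a type 2 response were higher in 7 of 7 measured, where 52.1% of gene names were, with a median of 0.56 and none past the adjusted threshold. Only 1 of the 7, Rora, did not overlap between genotypes, and the mean level of the list overlapped too, at 1.77 to 2.26 in the labelled knockout tumours and 1.17 to 1.80 in the labelled wild-type tumours. Rora, a transcription factor of innate lymphoid cells that skin cells also express, read 5.22, 5.07 and 4.81 in the labelled knockout tumours against 4.30, 4.63 and 3.63 in the labelled wild-type tumours (difference 0.84, limma adjusted p = 0.304). Il33, an alarmin of epithelial and stromal cells, read 3.62, 4.68 and 4.13 against 3.40, 3.71 and 2.45 (0.95, adjusted p = 0.384), with overlap. Gata3, the lineage factor of T helper 2 cells that keratinocytes also use, differed by 0.56 and Il7r, a chain of the TSLP receptor, by 0.43, while Crlf2, the chain specific to TSLP, differed by 0.10. Il25, Il9, Il31, Il10 and Ccr4 stayed at background on all 6 arrays.

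Differences along the shared signalling chain were small. Stat6, the transcription factor of the pathway, read 2.32, 2.37 and 2.24 in the labelled knockout tumours against 2.31, 2.32 and 2.36 in those labelled wild-type, a difference of -0.02 with a standard error of 0.14. Of 13 measured receptor and signalling genes 9 lay higher and 4 lower, with a median of 0.38 and none past the adjusted threshold. The smallest unadjusted p values belonged to Jak3, Cish, Il13ra1 and Csf2rb, which differed by 0.50, 0.70, 0.39 and 0.69. The other probes of Jak3 ran the other way, at -0.98 and -0.77. Il13ra2, the decoy receptor for IL-13, read -2.20, -1.29 and -0.74 against -1.12, 1.66 and -2.29 and overlapped widely.

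Among 14 measured targets of IL-4 and IL-13 other than the members, 11 lay higher and 3 lower, with a median of 0.38 and again 0 past the adjusted threshold. Ccl11, or eotaxin, a chemokine that draws eosinophils, stood out by size: it read 0.94, 3.11 and 2.97 in the labelled knockout tumours against -0.09, -0.84 and -0.63 in those labelled wild-type, a difference of 2.86 with a standard error of 0.57 (limma adjusted p = 0.170) and no overlap. Without the first labelled knockout tumour, its lowest, it passed the adjusted threshold. Ccl8, a chemokine of alternatively activated macrophages in mouse skin, read 4.83, 4.64 and 6.35 against 3.85, 4.29 and 2.74 (difference 1.65, adjusted p = 0.312). Il4i1, an amino acid oxidase first found as an IL-4 response gene, differed by 1.11 and Postn, a matrix protein induced by IL-13, by 0.54. Ccl24, the eotaxin of macrophages, read -0.66, 0.91 and 3.07 against -1.03, 0.87 and -2.67, so that its spread within a genotype was larger than its difference of 2.05. Mgl2, Clec10a and Cdh1 were the 3 that lay lower, by 0.08 to 0.30, and Ccl22 was not above background on any array.

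**Figure D3:**
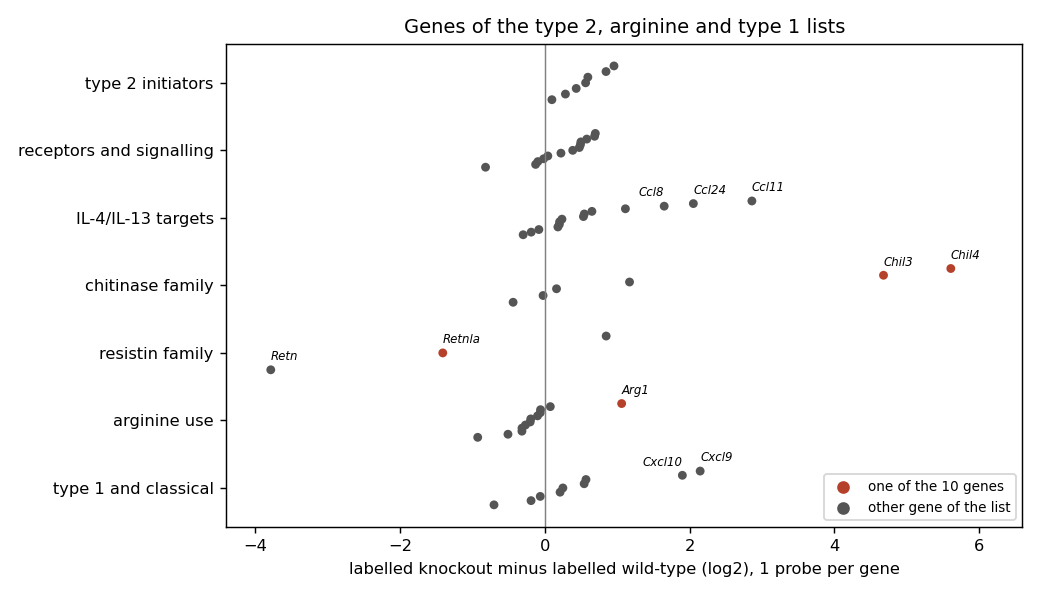
Labelled knockout minus labelled wild-type difference (log2) of the genes of 7 lists, 1 probe per gene. Red marks those of the 10 genes that stand on these lists (Chil3, Chil4, Retnla and Arg1), and grey marks other list genes. Chil3 and Chil4 lie farthest to the right, Retn and Retnla lie on the left, and Arg1 lies to the right of every other arginine gene.

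Relatives of Chil3, Chil4 and Retnla are set beside them next. The other chitinase genes measured were Chil1, which differed by 1.17 with a standard error of 0.57 and overlapped between genotypes, Chit1, the active macrophage chitinase (-0.44), Chid1 (0.16) and Ovgp1 (-0.02); Chil6 and Chia1 were not above background anywhere. In the resistin family Retn, the adipocyte hormone resistin, read -6.08, -5.12 and -4.46 in the labelled knockout tumours, where 0 of 3 arrays were well above background, against -1.47, -0.31 and -2.51 in the labelled wild-type tumours, at least 5.45-fold lower with dim arrays set at the lowest signal well above background (limma adjusted p = 0.116). Retnlg, made by neutrophils and marrow cells, read -2.42, -1.27 and -0.07 against -1.88, -1.26 and -3.17, and Retnlb was at background.

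Other genes of the arginine list, which also covers ornithine and spermine metabolism, mostly lay on the other side of 0 from Arg1. Of 12 measured, Arg1 included, 2 lay higher (Arg1 and the transporter Slc7a1, at 0.08) and 10 lower, where 52.1% of gene names lay higher. The median was -0.20, and none passed the adjusted threshold. Sms, spermine synthase, differed by -0.93 (limma adjusted p = 0.309) with no overlap, though its other probes gave -1.07 without overlap and -0.50 with overlap. Ass1, which remakes arginine from citrulline, differed by -0.51, and Odc1, which turns ornithine into putrescine, by -0.32. Arg2, the mitochondrial arginase, read -3.38, -2.76 and -2.34 in the labelled knockout tumours and -2.86, -1.58 and -3.10 in the labelled wild-type tumours. Nos2, which competes with arginase for arginine, read -2.16, -2.30 and -1.94 against -1.69, -2.34 and -2.18, a difference of -0.06.

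Type 1 and classical activation genes, the usual counterpart, lay mostly on the same side: 7 of 10 measured were higher, with a median of 0.40 and none past the adjusted threshold. Cxcl10, an interferon-induced chemokine, read 0.87, -0.93 and -0.83 in the labelled knockout tumours against -2.19, -1.45 and -2.95 in the labelled wild-type tumours (difference 1.90, limma adjusted p = 0.279). Il23a (-0.70) and Cxcl9 (2.15, with 1 of 3 labelled wild-type tumours above background) overlapped. Ifng, Il12a and Il12b were at background on all arrays.

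Cells that make or answer type 2 cytokines were followed by marker lists; in whole tumours, fewer cells of a type and less RNA per cell cannot be told apart. The 10 macrophage genes split 5 higher and 5 lower with a median of 0.00, and their mean level was 0.56 to 0.87 in the labelled knockout tumours and 0.25 to 1.10 in the labelled wild-type tumours. Csf1r, for instance, read 2.67, 2.93 and 2.84 against 2.97, 2.59 and 2.26. All 6 measured neutrophil genes lay higher, with mean levels of 3.55 to 4.22 against 3.15 to 3.56, which overlapped slightly. S100a8 differed by 1.04 (limma adjusted p = 0.271) and S100a9 by 0.63 (adjusted p = 0.278), both without overlap. The neutrophil surface marker Ly6g read -0.03, 0.24 and 0.75 against 0.49, -0.28 and -0.51, and Csf3r, Cxcr2 and Mmp8 also overlapped. Which cells gave the S100a8 and S100a9 signals was not tested. The part of neutrophils in the Chil3 and Chil4 differences was not tested.

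Of the cells that can make IL-4, 8 mast cell and basophil genes averaged -0.58 to 0.21 in the labelled knockout tumours and -0.82 to 0.20 in the labelled wild-type tumours. Mcpt8, the basophil protease, read 0.52, -0.10 and 0.26 against -1.82, -0.27 and -2.12 (difference 1.63, limma adjusted p = 0.270) with no overlap, and of the 8 genes 4 lay higher (Mcpt8, Ms4a2 by 0.88, Cpa3 by 0.34 and Fcer1a by 0.14) and 4 lower (Tpsb2, Kit, Mcpt4 and Cma1, by 0.13 to 0.54), with a median of 0.01. The 6 T cell genes averaged -0.81 to -0.28 against -0.89 to -0.52. Of these, 5 lay higher, where 52.1% of gene names did, and 1 lower, with a median of 0.25. Cd3e read 0.46, 0.70 and 0.35 against 0.24, 0.08 and -0.24 and Cd4 1.28, 1.31 and 1.50 against 1.30, 0.88 and 1.24. Lck was the lower one, at -0.20, and Cd3g differed by 0.035. The part of these cells in the Il4 difference was not tested. Eosinophils, the cells that eotaxins attract, had Epx at background on all 6 arrays and Prg2 and Siglecf above it too rarely to test, with 3 of 6 listed genes measured at -3.01 to -2.06 against -3.12 to -2.52. Of 5 measured perivascular macrophage genes 2 lay higher and 3 lower, with a median of -0.09. Their mean levels overlapped, at -1.50 to -0.90 against -1.51 to -0.23. F13a1 of this list read -1.58, -1.99 and -2.43 against 0.52, 0.14 and -0.84 (difference -1.94, limma adjusted p = 0.162) without overlap. Cd163, Lyve1, Folr2 and Cbr2 of the same list overlapped.

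**Figure D4:**
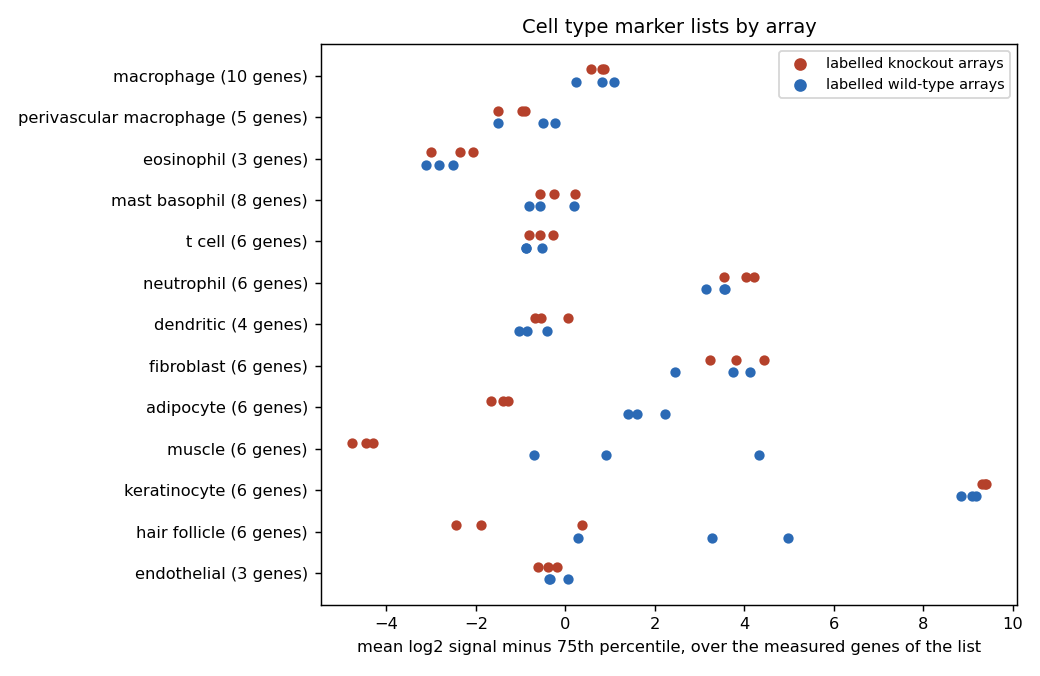
Mean log2 signal minus 75th percentile over the measured genes of each cell type list, 1 point per array, with labelled knockout arrays above labelled wild-type arrays in each row. Macrophage, mast cell and basophil, and T cell lists overlap between genotypes, and keratinocyte, adipocyte and muscle lists do not.

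Chil4 had the largest spread over the 6 arrays of the members measured on all of them. Over 14252 gene names measured on every array, the 5 profiles nearest to it by root mean square difference of mean-centred log2 values were those of Chil3 (0.58), Il20ra (1.77), Zfp949 (1.94), Ttc34 (1.96) and Ccl24 (2.00). Il20ra, a receptor chain for cytokines of the IL-10 family that act on keratinocytes, read 0.32, 0.82 and 1.46 in the labelled knockout tumours against -1.54, -0.56 and -2.83 in the labelled wild-type tumours. The eotaxin Ccl24 shared with Chil4 and Chil3 its highest labelled knockout tumour, the third, and its highest and lowest labelled wild-type tumours, the second and the third. The 5 genes were picked for closeness to Chil4 over these same arrays, so a shared order is partly built into the choice.

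**Figure D5:**
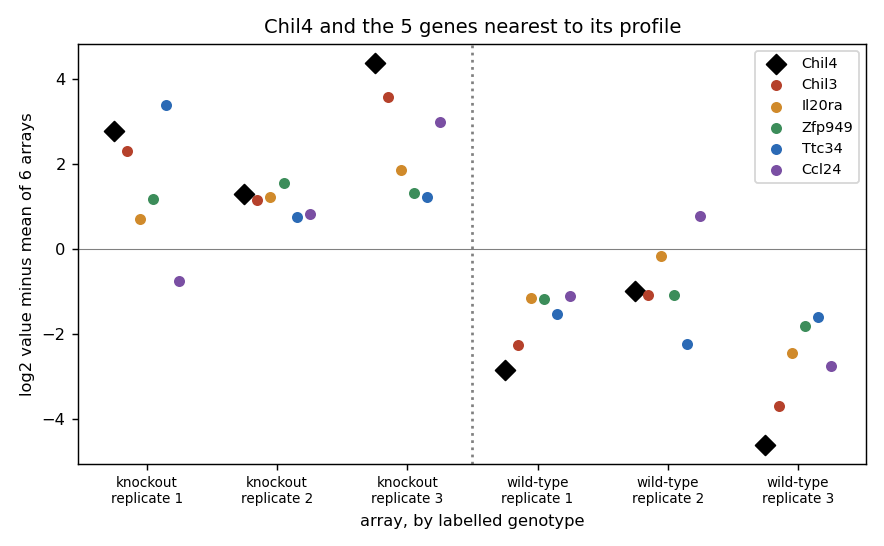
Log2 value minus the mean of the 6 arrays for Chil4 (black diamonds) and the 5 genes nearest to its profile, by array, with labelled knockout tumours left of labelled wild-type tumours. Chil3 follows Chil4 most closely, with its highest value in the third labelled knockout tumour and its lowest in the third labelled wild-type tumour.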

How the data were processed

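The deposited scanner files give spot intensity on a linear scale, which the authors' extraction program, Agilent Feature Extraction (version 10.7.1.1 in the submitters' processing notes), background-subtracted and detrended per the file headers. Each of the 59305 non-control spots of an array was taken to log2, minus log2 of the array's 75th percentile. The spots of a probe were then averaged, outlier spots left out. The percentile and the signal units came from averages on the linear scale. The authors' deposited series table, in log2 with a median of 4.969 in every column, served as an alternative; no source used here says how it was normalized. A probe was tested where all 3 arrays of a genotype were well above background (29721 probes), with limma 3.58.1 in R 4.3.3 and Benjamini-Hochberg adjustment. Surrogate values for dim spots limit differences near background.

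The members and gene lists were chosen with earlier results of these data known. Named were every member probe, P2ry6, up to 4 genes with the smallest unadjusted p in each pathway list, marker genes at background and the 5 nearest to Chil4; other genes named (such as Stat6, Crlf2, Ccl24, Arg2, Nos2, Mcpt8, Csf1r and Cd4) were chosen after their values were seen. For lists, the probe with the highest mean stood for a gene, so the second Il4ra probe appears only with the members. Array gene names were updated through RefSeq by accession (32994 probes), symbol (10224) or synonym (520); 12867 kept the name in the files. A gene of the type 1 list is counted with its list but not reported here. Promoters are RefSeq's, with no entry matched for Tslp and Arg1. The test was checked on simulated data. The number of arrays limits the precision.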

Additional observations from a re-analysis of the deposited data

How the results depend on the processing

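Under 9 other settings and 6 in which 1 tumour was left out, 131 of 133 recomputed member differences moved by less than 1 SD between replicates, and none reached an adjusted p under 0.05 in limma; the other 2 were Il4 and Retnla under normexp (above). The median difference of the member probes, a description only, was 1.06, 1.02 to 1.14 under other settings and 0.78 to 1.23 with a tumour left out. The count of probes past the threshold over the whole array, 43, was far less stable: 15 with normexp, 22 when dim probes were kept, 6 when every array had to be above background, and 16 to 187 with a tumour left out, highest without the second labelled wild-type tumour. Its cause was not tested. Pathway genes past the threshold numbered 0 to 1 with a tumour left out, the 1 being Ccl11 without the first labelled knockout tumour and another gene without the second labelled wild-type tumour. The labels share replicate numbers, and with the replicate number as a block the array count was 6. Same-numbered tumours deviated from their genotype means with correlations of 0.096, 0.245 and 0.143, so the numbers were not taken as pairs, although every sample correlated best with its own number, a hint from the data and not the design. The slide row comparison was chosen after seeing the data. Few arrays and probes near background limit Il4, Retnla, Il5 and Il13 most.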
